A study of Mus musculus with 165 samples.

Results

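The genes followed here were the chemokines Cxcl13, Cxcl9, Cxcl10, Cxcl16, Cx3cl1, Ccl2, Ccl3, Ccl4, Ccl8 and Ccl19, 10 of the 55471 Ensembl identifiers in each of the deposited count tables. They were chosen by name, as the rows of the brain and the liver table whose identifier carries one of these symbols in the table of gene names; another identifier named Ccl19 in GENCODE, on a scaffold outside the chromosomes, held 0 counts in all brains and 1 in all livers and was left out. The libraries came from whole brain and liver RNA of untreated male C57BL/6J/Ukj mice, kept only for ageing, at 3, 9, 15, 24 and 28 months. The liver groups held 16, 16, 16, 17 and 18 mice in that order of age and the brain groups 15, 16, 16, 17 and 18. Brain and liver libraries of the same age and number are from 1 mouse, and 82 of the 83 mice had both. Libraries were made in 3 preparations (preps), each of which held every age in both tissues.

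Chemokines are small secreted or membrane-anchored proteins that draw leukocytes along a gradient through G protein-coupled receptors. Cxcl13 attracts B cells through Cxcr5 and Ccl19 attracts T cells and dendritic cells through Ccr7; both organise lymphoid tissue. Cxcl9 and Cxcl10 are induced by interferons and attract activated T cells and NK cells through Cxcr3. Cxcl16, the ligand of Cxcr6, and Cx3cl1 (fractalkine), the ligand of Cx3cr1, are made as membrane-anchored proteins; in brain, neurons make Cx3cl1 and microglia carry Cx3cr1. Ccl2 attracts monocytes through Ccr2, Ccl3, which can act through Ccr1, and Ccl4 attract macrophages and T cells, and Ccl8 is in the mouse a ligand of Ccr8.

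The promoters of the genes on which the results turn are shown first, because Cxcl9 and Cxcl10 moved together across livers while Cxcl13 and Ccl8 had the largest age differences. Each run is the RefSeq promoter on GRCm38.p6, 5′ to 3′ on the gene's strand, from 250 bases before the start site to 50 after it, and capitals mark matches to 3 motifs on either strand. The motifs were an interferon-response core (GAAA, any 2 bases, GAAA), a STAT site (TTC, any 3 bases, GAA) and a kappaB-like site (GGG, any 5 bases, CC).
Cxcl13, chr5:95956689-95956988, plus strand: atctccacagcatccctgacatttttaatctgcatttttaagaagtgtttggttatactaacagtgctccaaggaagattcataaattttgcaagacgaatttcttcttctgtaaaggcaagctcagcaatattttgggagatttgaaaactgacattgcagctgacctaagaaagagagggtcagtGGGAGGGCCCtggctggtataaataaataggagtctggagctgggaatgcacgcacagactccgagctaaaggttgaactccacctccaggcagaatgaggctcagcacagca
Cxcl9, chr5:92328030-92328329, minus strand: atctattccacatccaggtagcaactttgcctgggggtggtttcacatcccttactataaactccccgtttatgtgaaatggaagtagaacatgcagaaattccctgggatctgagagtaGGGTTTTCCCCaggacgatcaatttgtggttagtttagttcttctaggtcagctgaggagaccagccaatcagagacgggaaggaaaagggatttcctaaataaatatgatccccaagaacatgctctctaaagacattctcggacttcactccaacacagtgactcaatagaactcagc
Cxcl10, chr5:92348840-92349139, minus strand: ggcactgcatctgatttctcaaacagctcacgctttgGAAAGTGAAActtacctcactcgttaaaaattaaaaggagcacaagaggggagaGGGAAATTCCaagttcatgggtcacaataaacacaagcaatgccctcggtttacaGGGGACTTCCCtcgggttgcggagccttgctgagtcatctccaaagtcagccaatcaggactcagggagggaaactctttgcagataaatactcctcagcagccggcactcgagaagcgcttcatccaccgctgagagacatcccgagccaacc
Ccl8, chr11:82114935-82115234, plus strand: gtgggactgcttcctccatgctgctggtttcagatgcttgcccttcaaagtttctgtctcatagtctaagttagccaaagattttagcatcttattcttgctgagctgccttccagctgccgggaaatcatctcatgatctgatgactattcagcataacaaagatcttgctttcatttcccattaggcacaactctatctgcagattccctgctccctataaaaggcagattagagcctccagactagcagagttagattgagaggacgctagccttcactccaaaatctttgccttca
Cxcl10 held 1 match to the interferon-response core, at position -213 from the start site, and 3 to the kappaB-like site, 2 of which overlap. The Cxcl9 window held 2 overlapping kappaB-like matches, at -130 and -129, and that of Cxcl13 held 1, at -63. None of the 3 motifs was found in these letters of the Ccl8 window. Of all 32851 promoters of the same length, 3.44% held the interferon-response core, 8.3% the STAT site and 50.8% the kappaB-like site, so a kappaB-like match is common. Of the other members, Ccl19 held the interferon-response core at -208 and the kappaB-like site at -250, and Ccl3 and Cx3cl1 held none of the 3; promoters of 7 of the 10 genes were in the table used. A match is a description of the letters and does not show that a factor binds there.

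On GRCm38 the genes lie in a few neighbourhoods. Cxcl9 (chr5:92321347-92328079) and Cxcl10 (chr5:92346638-92348889) are neighbours on the minus strand of chromosome 5, and Cxcl13 (chr5:95956951-95961068) lies on the plus strand of the same chromosome. Ccl2 (chr11:82035571-82037453) and Ccl8 (chr11:82115185-82116799) are on the plus strand of chromosome 11, followed by Ccl3 (chr11:83647844-83649355, minus strand) and Ccl4 (chr11:83662584-83664683, plus strand). Cxcl16 (chr11:70453983-70459984, minus strand), Cx3cl1 (chr8:94772009-94782427, plus strand) and Ccl19 (chr4:42754525-42756577, minus strand) stand apart. Exons of Cxcl10 overlap Art3 and exons of Cxcl16 overlap Zmynd15 on the opposite strand, and the strand setting of the authors' counting is not given in the sources used here. Ccl19 has near-identical copies among which reads could be split, so its values are uncertain.

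In units of 1000000 counts, the brain libraries held 11.46 to 73.39 (median 37.58) and the liver libraries 5.82 to 57.49 (median 32.86). Levels below are CPM, the counts of a gene scaled to the library's total after TMM factors. Marker genes fitted the labelled tissues: summed hepatocyte markers were at 18700 to 122000 CPM in livers against 11.1 to 5910 CPM in brains (the list shares Ttr with the choroid plexus markers, which were at 37.8 to 6450 CPM in brains), and summed neuron markers at 3110 to 6670 CPM in brains against 6.72 to 55.0 CPM in livers. The least typical libraries by median Spearman correlation with the other libraries of their tissue were brain 28 months replicate 15 (0.866) and brain 24 months replicate 13 (0.953), against at least 0.983 for the other brains, and liver 24 months replicate 13 (0.919) and liver 28 months replicate 9 (0.930), against at least 0.942 for the other livers. In bulk tissue, fewer cells of a type and less RNA per cell cannot be told apart.

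In liver, chemokine transcripts rose with age, with the largest log2 fold changes for Ccl8 and Cxcl13, of which Cxcl13 reached the higher CPM. Of the 9 chemokines that passed the filter on low counts, 7 were called higher at 28 than at 3 months by edgeR's quasi-likelihood test at a Benjamini-Hochberg adjusted p under 0.05, and none lower; of all 15579 genes tested, 31.9% were called higher and 30.0% lower. The 7 were Cxcl13, Cxcl16, Cx3cl1, Ccl2, Ccl3, Ccl4 and Ccl8, and Cxcl9 and Cxcl10 did not pass. Ccl8, Ccl3 and Ccl4 had medians of 3, 4 and 5 counts at 3 months and passed the filter through the older livers, which by itself favours genes that differ, so the count of 7 is a description. In a fit with no filter the same 7 of all 10 members were called higher, where 19.6% of 33676 genes were. At 24 against 3 months 8 of the 9, all but Cxcl10, were called higher, where 25.0% of all genes were. None was called in prep 1 alone (edgeR; 4 at an unadjusted p under 0.05), where 3.77% of genes were called higher, 3 in prep 2 alone, where 9.94% were, and 8 in prep 3 alone, where 18.3% were. The plot of liver levels shows every mouse.

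**Figure D1:**
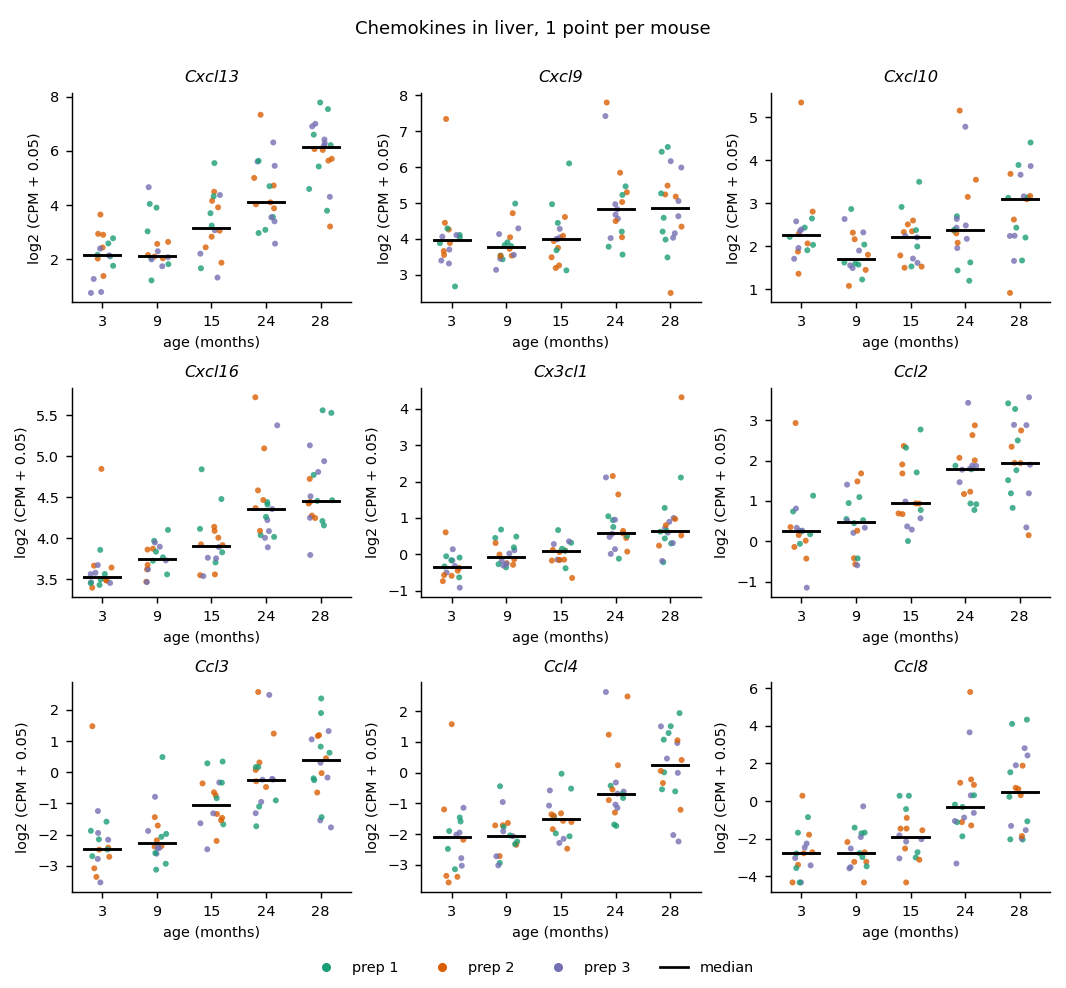
Levels of the 9 chemokines tested in liver, as log2 of CPM plus 0.05 (vertical axis), against age in months (horizontal axis), with 1 point per mouse coloured by prep and a bar at the median. The Cxcl13 median is 4.41 CPM in the youngest and 69.6 CPM in the oldest livers, and 1 mouse of 3 months (replicate 12) lies above all others of its age for 8 of the 9 genes.

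Cxcl13, the B cell attractant, was at 1.64 to 12.5 CPM (median 4.41) in the 16 livers of 3 months and at 9.20 to 220 CPM (median 69.6) in the 18 livers of 28 months. Of the 28-month livers, 17 lay above the highest 3-month liver, and the groups met only through replicate 8 of 28 months at 9.20 CPM and replicate 6 of 3 months at 12.5 CPM. The log2 fold change was 3.97 ± 0.43 (SE; edgeR, adjusted p = 2.1e-12). The change was called in each prep fitted alone, with log2 fold changes of 4.22, 2.90 and 4.77 in preps 1, 2 and 3. The medians at 9, 15 and 24 months were 4.33, 8.88 and 17.1 CPM.

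Cxcl13 was also the earliest member to pass. At 15 against 3 months its log2 fold change was 1.40 ± 0.41 (edgeR, adjusted p = 0.022), the only call among the 9, while 7.32% of all genes were called in either direction. In preps 1, 2 and 3 alone none of the 9 was called at 15 months (edgeR, 4, 2 and 1 at an unadjusted p under 0.05). Of all genes, 58 of 15529, 64 of 15717 and 14 of 15940 were called there. At 9 against 3 months none of the 9 chemokines was called (edgeR; 1 at an unadjusted p under 0.05) and 4.69% of all genes were. Cxcl13 was again the only call at 28 against 24 months, at 1.17 ± 0.38 (edgeR, adjusted p = 0.023), where 15.3% of all genes were called; without replicate 7 of 28 months, the highest at 220 CPM, none of the 9 was called (edgeR; 1 at an unadjusted p under 0.05), where 12.8% of all genes were. Without replicate 12 of 3 months, 4 chemokines in place of 1 were called at 15 against 3 months, where 8.29% of all genes were.

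Ccl8, a CC chemokine of monocytes and macrophages, went from near the detection limit to a wide range of levels. The 3-month livers held 0 to 1.17 CPM (median 0.0961), with 10 of 16 libraries at 3 counts or fewer, and the 28-month livers 0.193 to 20.1 CPM (median 1.35), with none at that floor. Of the 18 old livers, 10 lay above the highest young one, and the rest overlapped the young range. The log2 fold change was 4.36 ± 0.77 (edgeR, adjusted p = 1.4e-06). At 24 months the highest liver, replicate 13, stood at 55.6 CPM against a median of 0.757, and without it the log2 fold change at 24 against 3 months was 3.03 in place of 4.66 and remained called (edgeR, adjusted p = 0.00012). In that liver the summed B cell markers were the highest of its age (729 CPM, median 27.3). So were its T cell (141, median 14.8) and monocyte markers (151, median 23.1), but neutrophil and Kupffer cell markers were highest in replicate 10. At 28 months replicate 4, highest for 6 of the 9 chemokines, led in B cell (422 CPM) and T cell markers (68.6 CPM). Replicate 3 led in neutrophil and monocyte markers. The part of these cells was not tested.

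The other CC chemokines rose by smaller amounts. Ccl2, the ligand of Ccr2, was at 0.401 to 7.58 CPM (median 1.14) at 3 months and at 1.06 to 11.8 CPM (median 3.79) at 28 months, a log2 fold change of 1.72 ± 0.31 (edgeR, adjusted p = 2.5e-06). The ranges overlapped, with 3 of 18 old livers above the highest young one and 17 above the young median. Ccl3 was at 0.0365 to 2.73 CPM (median 0.134) at 3 months and 0.244 to 5.09 CPM (median 1.25) at 28 months, at 2.33 ± 0.46 (edgeR, adjusted p = 9.0e-06). Ccl4, its neighbour on chromosome 11, was at 0.0343 to 2.94 CPM (median 0.184) and 0.162 to 3.78 CPM (median 1.14), at 2.10 ± 0.45 (edgeR, adjusted p = 5.2e-05). For both, all but a few old livers exceeded the young median (18 and 17 of 18), but the young and old ranges overlapped, and 2 old livers for Ccl3 and 1 for Ccl4 exceeded the highest young liver, replicate 12. Without that liver the log2 fold changes were 3.28 for Ccl3 and 2.99 for Ccl4 (edgeR, adjusted p = 1.0e-09 and 9.0e-09).

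Both membrane-anchored ligands were higher in old liver. Cxcl16 was at 10.5 to 28.7 CPM (median 11.5) at 3 months and 13.8 to 47.1 CPM (median 21.9) at 28 months, a log2 fold change of 1.00 ± 0.14 (edgeR, adjusted p = 1.1e-08); all 18 old livers lay above the young median. Cx3cl1 was low, at 0.479 to 1.47 CPM (median 0.732) at 3 months and 0.810 to 19.9 CPM (median 1.50) at 28 months, at 1.70 ± 0.27 (edgeR, adjusted p = 1.2e-07). Replicate 14 of 28 months, at 19.9 CPM, stood far above the rest; without it the log2 fold change was 1.07 ± 0.18 and remained called (edgeR, adjusted p = 8.5e-07). The summed neuron markers of that library were the highest of the livers at 55.0 CPM, and its cholangiocyte markers (201 CPM against a median of 43.1) and stromal fibroblast markers (636 against 398) were the highest at 28 months; their part in its Cx3cl1 value was not tested.

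The interferon-induced pair did not pass at 28 months. At 24 against 3 months Cxcl9 was called higher (1.05 ± 0.37, edgeR, adjusted p = 0.013) and Cxcl10 was not (0.31 ± 0.31, edgeR, adjusted p = 0.42). The highest Cxcl9 level at 24 months was 222 CPM, in replicate 13, against a median of 28.4 CPM. Cxcl9 was at 6.35 to 162 CPM (median 15.6) at 3 months and 5.60 to 94.2 CPM (median 29.0) at 28 months, a log2 fold change of 0.72 ± 0.37 (edgeR, adjusted p = 0.081). Cxcl10 was at 2.51 to 40.6 CPM (median 4.72) and 1.83 to 21.3 CPM (median 8.58), at 0.41 ± 0.31 (edgeR, adjusted p = 0.26). No liver of 28 months exceeded the highest young liver for either gene. That young liver was replicate 12, at 162 CPM of Cxcl9 and 40.6 CPM of Cxcl10. The means of the other young livers were 14.8 and 4.61 CPM.

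Replicate 12 of 3 months, a library of prep 2, therefore touches most of these values. It held the highest level among the young livers for 8 of the 9 chemokines, all but Cxcl13 at 7.43 CPM. It also held the highest summed T cell markers (28.5 CPM against a group median of 6.82), monocyte markers (51.9 against 10.3), neutrophil markers (15.7 against 2.60) and Kupffer cell markers (960 against 334) of its age. Without it, all 9 chemokines were called higher at 28 months, and 33.3% of all genes were. Cxcl9 was then at 1.32 ± 0.33 (edgeR, adjusted p = 0.00032) and Cxcl10 at 0.90 ± 0.28 (edgeR, adjusted p = 0.0039). In prep 2 alone, which holds this mouse, Cxcl9 and Cxcl10 had log2 fold changes of -0.47 and -0.44, and 2 of the 9 chemokines were called there (Cxcl13 and Cx3cl1), against 8 in each of preps 1 and 3; of all genes, 21.1%, 8.19% and 22.4% were called higher in preps 1, 2 and 3 alone.

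Between 15 and 24 months 8 of the 9 chemokines were called higher in liver and Ccl2 was not (0.57 ± 0.31, edgeR, adjusted p = 0.14), while 36.0% of all genes were called in either direction. Ccl8 had the largest value, at 3.79 ± 0.75 (edgeR, adjusted p = 7.8e-05), which was 2.18 ± 0.63 without replicate 13 of 24 months (edgeR, adjusted p = 0.0056), and Cxcl10 lay at the threshold, at 0.78 ± 0.32 (edgeR, adjusted p = 0.050). Without replicate 13 of 24 months, the least typical liver and the highest at its age for 7 of the 9 chemokines, 7 were called, where 31.1% of all genes were. In preps 1 and 3 alone none of the 9 was called in this comparison (edgeR; none and 9 at an unadjusted p under 0.05), where 0.0193% and 8.09% of all genes were called; in prep 2 alone 6 were, where 16.7% of all genes were. In prep 1 the values of Cxcl9, Cxcl10, Cxcl16, Ccl2, Ccl3 and Ccl4 lay below 0. Over the 4 age terms together all 9 were called, where 71.5% of all genes were.

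In brain the chemokines changed in both directions. Ccl8, Ccl3 and Cxcl16 were called higher at 28 than at 3 months and Cx3cl1 lower, among the 5 chemokines that passed the filter on low counts, while 16.3% of the 18711 genes tested were called higher and 12.0% lower. The same calls were made at 24 against 3 months, where 6.19% of all genes were higher and 3.86% lower. With no filter Cxcl16 missed the threshold there (0.44, edgeR, adjusted p = 0.059). In preps 1, 2 and 3 alone 0, 0 and 1 of the 5 were called at 24 months. Of all genes, 222 of 18658, 112 of 18769 and 92 of 18942 were called in these preps. None was called at 9 or 15 against 3 months (edgeR; 1 at an unadjusted p under 0.05 in each), where 0.315% and 0.871% of all genes were called. In single preps at 28 against 3 months, all of these 5 were called in prep 1, none in prep 2 (edgeR; 5 at an unadjusted p under 0.05) and 2 in prep 3 (Cx3cl1 and Ccl8), where 10.6%, 1.96% and 6.36% of all genes were called, with the 4 members called over all preps on the same side of 0 in each.

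**Figure D2:**
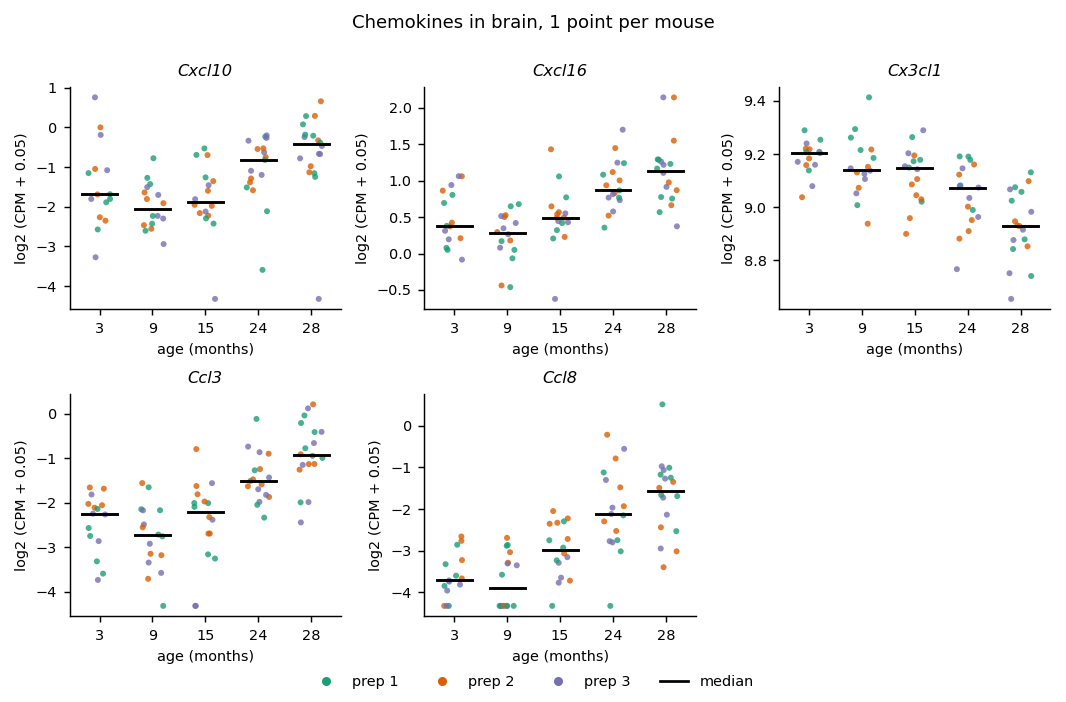
Levels of the 5 chemokines tested in brain, as log2 of CPM plus 0.05 (vertical axis), against age in months (horizontal axis), with 1 point per mouse coloured by prep and a bar at the median. The median of Cx3cl1 goes down from 590 to 488 CPM between 3 and 28 months while those of Ccl3, Ccl8 and Cxcl16 go up, and points at the lowest edge have no counts.

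Cx3cl1, the neuronal ligand of the microglial receptor Cx3cr1, was far above the other chemokines in brain. It was at 526 to 626 CPM (median 590) at 3 months, at 436 to 585 CPM (median 539) at 24 months and at 403 to 561 CPM (median 488) at 28 months. All 18 brains of 28 months lay below the median of the young brains and 13 below the lowest of them. The log2 fold change was -0.25 ± 0.04 (edgeR, adjusted p = 1.7e-07), and the mean at 28 months was 0.841 times that at 3 months. The lowest value, 403 CPM, belonged to replicate 15, the least typical brain, and without it the value was -0.24 (edgeR, adjusted p = 2.0e-07). The 5 neuron markers were not called, and their summed median was 5790 CPM at 3 months and 5950 CPM at 28 months. The part of neurons in the fall of Cx3cl1 was not tested.

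Ccl8 had the largest log2 fold change among the brain members, from a very low level. At 3 months 12 of 15 brains held 3 counts or fewer and the level was 0 to 0.109 CPM (median 0.0263). At 28 months 2 of 18 did, and the level was 0.0451 to 1.38 CPM (median 0.286), a median of 10 counts per library. Of the 18 old brains, 15 exceeded the highest young brain, and the log2 fold change was 2.97 ± 0.44 (edgeR, adjusted p = 1.3e-07). Ccl8 passed the filter through the older brains, which by itself favours genes that differ; with no filter it was at 2.98 (edgeR, adjusted p = 1.8e-07). The same holds for Ccl3, with a median of 6 counts at 3 months, which was at 1.81 with no filter (edgeR, adjusted p = 1.5e-06). Within preps 1, 2 and 3 Ccl8 was at 3.42, 1.50 and 3.76. Ccl8 was the only member called at 24 against 15 months, at 1.61 ± 0.39 (edgeR, adjusted p = 0.017), where 0.732% of all genes were called. That call was lost in each prep alone, where 1, 0 and 0 of all genes were called. With only those 2 ages in the fit Ccl8 was too low to test. No member was called at 28 against 24 months (edgeR, 2 at an unadjusted p under 0.05), where 1.09% of all genes were.

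Ccl3 and Cxcl16 rose with it. Ccl3 was at 0.0249 to 0.266 CPM (median 0.160) at 3 months and 0.133 to 1.10 CPM (median 0.474) at 28 months, at 1.82 ± 0.28 (edgeR, adjusted p = 5.4e-07), with 15 of 18 old brains above the highest young one. Cxcl16 was at 0.894 to 2.04 CPM (median 1.25) and 1.25 to 4.37 CPM (median 2.15), at 0.67 ± 0.14 (edgeR, adjusted p = 0.00018), with 10 of 18 above. Cxcl10 was at 0.0534 to 1.64 CPM (median 0.260) and 0 to 1.53 CPM (median 0.694), and its log2 fold change of 0.72 ± 0.29 missed the threshold (edgeR, adjusted p = 0.052), while DESeq2 called it (0.75, adjusted p = 0.043). Cxcl10 crossed the threshold without brain 28 months replicate 15, which had no Cxcl10 count (0.77, edgeR, adjusted p = 0.030), and without brain 3 months replicates 13 and 16, which held 0.951 and 1.64 CPM (1.29, edgeR, adjusted p = 0.00040). Within preps 1, 2 and 3 Cxcl10 was at 1.58, 1.09 and -0.21, so its direction was not the same in all preps. Over the 4 age terms together all 5 were called, against 20.6% of all genes.

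The other 5 chemokines were at or near the detection limit in brain. Cxcl13 was at 3 counts or fewer in 11 of 15 brains of 3 months (median 0.0296 CPM) and in 2 of 18 of 28 months (median 0.288 CPM, highest 1.27 CPM). Ccl2 went from 9 of 15 to 2 of 18 libraries at that floor and Ccl4 from 8 of 15 to 3 of 18. In a fit with no filter on low counts these 3 were called higher at 28 months, at 2.65, 1.36 and 1.65 on the log2 scale (edgeR, adjusted p = 3.8e-06, 0.00083 and 1.8e-05), where 7.65% of all 39572 genes were called higher; such fold changes depend on how counts near 0 are handled. Cxcl9 remained at 3 counts or fewer in 12 of 18 old brains and was not called (0.00 on the log2 scale). Ccl19 was at 3 counts or fewer in every brain and, apart from 3 livers of 24 months, in every liver. With no filter it was called higher in liver at 24 against 3 months (1.88, edgeR, adjusted p = 0.0075), where 13.7% of all genes were, on a median of 2 counts per library at 24 months, and in none of the other liver and brain comparisons.

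Per kilobase of exon (union of annotated exons), the order of the members differed between the tissues. In livers of 28 months Cxcl13 led at 67.7 ± 49.2 CPM per kilobase (SD, n = 18), above Cxcl9 at 12.1 ± 8.62, Cxcl16 at 8.41 ± 3.05 and Ccl8 at 7.29 ± 11.3, and from Cxcl9 down to Cx3cl1 each gap between neighbours in the order was smaller than the larger SD of the pair. At 3 months Cxcl9 led the livers at 7.94 ± 12.3, with Cxcl13 at 4.32 ± 2.39 and Cxcl16 at 4.22 ± 1.44 within that spread. In brains of 28 months Cx3cl1 was at 125 ± 11.3 CPM per kilobase and the next members, Cxcl16 at 0.747 ± 0.288, Ccl3 at 0.718 ± 0.365 and Ccl8 at 0.642 ± 0.576, did not differ beyond their spread.

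**Figure D3:**
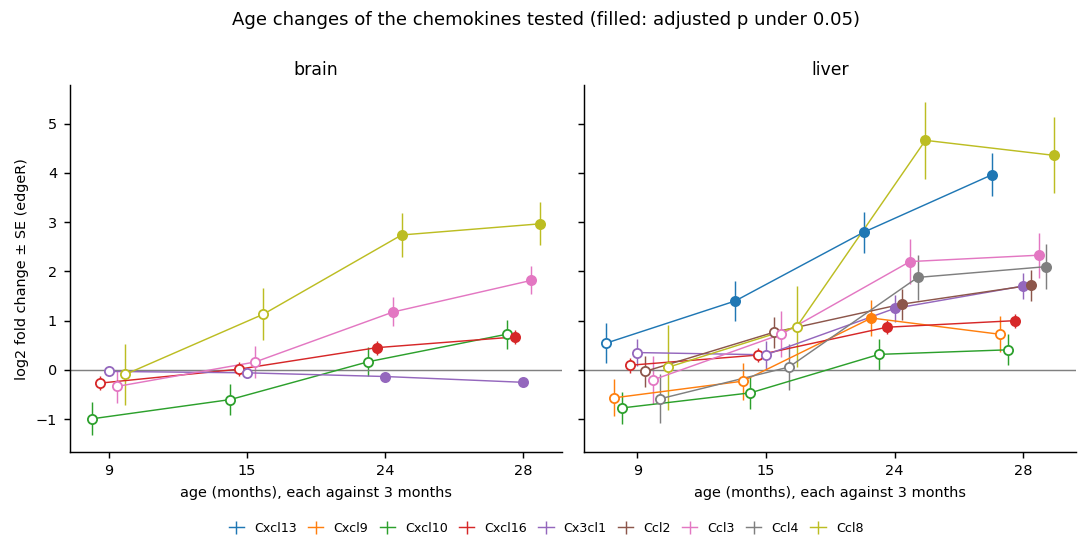
Log2 fold changes of each age against 3 months (vertical axis, bars are 1 SE from edgeR) by age in months (horizontal axis) for the chemokines tested in brain (left) and liver (right); filled points have an adjusted p under 0.05. Cx3cl1 is below 0 in brain (-0.25 at 28 months) and above 0 in liver (1.70), and all points at 9 months are open; the comparisons share the 3-month libraries.

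The difference between the tissues was tested in 1 fit over all libraries, as the change from 3 to 28 months in liver minus that in brain. Only Cx3cl1 was called, at 2.00 ± 0.26 on the log2 scale (edgeR, adjusted p = 8.4e-11), among 9 chemokines tested, where 40.6% of all 20328 genes were called. For Ccl8, with a log2 fold change of 4.36 in liver and 2.97 in brain, the difference was 1.44 ± 1.22 (edgeR, adjusted p = 0.37), and for Cxcl13 it was 1.40 ± 1.06 (edgeR, adjusted p = 0.30). Cxcl13, Cxcl9, Ccl2 and Ccl4 did not pass the filter in brain and entered this fit by their liver counts. For them a missing call does not show that the tissues changed alike. With only the genes kept in each tissue they were not tested. Cx3cl1 alone was then called (2.00 ± 0.26, edgeR, adjusted p = 6.4e-11), where 49.2% of 14035 genes were. Without liver 3 months replicate 12, Ccl3 (1.47 ± 0.54, edgeR, adjusted p = 0.019) and Cxcl16 (0.49 ± 0.19, edgeR, adjusted p = 0.031) were called as well. Without liver 28 months replicate 14, Cx3cl1 was at 1.34 ± 0.17 (edgeR, adjusted p = 7.5e-11).

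Receptors of these chemokines rose with them in liver. All 8 tested of the 9 receptors listed were called higher at 28 months, with Ccr8, the Ccl8 receptor, too low to test. The share over all liver genes was 31.9%. The median log2 fold change of the 8 was 1.77, against 0.011 for all genes. Genes that are low at 3 months can pass the filter through older libraries, which by itself favours genes that differ. Counts of calls for the receptors and for the lists and markers below are therefore descriptions. Cxcr5, the Cxcl13 receptor of B cells, had the largest log2 fold change at 3.41 ± 0.57, from a median of 0.390 to 1.18 CPM, and Ccr1 followed at 3.34 ± 0.45. Ccr2 was at 1.97 ± 0.32, Cx3cr1 at 1.89 ± 0.28 and Cxcr3 at 1.64 ± 0.25 (edgeR, adjusted p of each of these 5 at most 3.7e-07). The step in the Cxcr5 medians was smaller than its fitted value, and no receptor value is given here without single livers. Summed B cell markers were uneven in livers of 28 months, at 5.11 to 422 CPM with a median of 17.9 CPM. In brain 4 of the 9 were tested and Ccr1 (0.72 ± 0.21) and Cx3cr1 (0.34 ± 0.05, edgeR, adjusted p = 6.7e-07) were called higher, where 16.3% of all brain genes were. Cx3cr1 went from a median of 55.4 to 69.6 CPM in the same brains in which its ligand fell. Of 6 atypical receptors and sheddases listed, 2 of 5 tested in brain were called higher and 3 lower, and in liver 3 of 6 were called higher and 1 lower. Adam10 and Adam17, proteases that release Cx3cl1 and other membrane proteins from the cell surface, were lower in brain (-0.17 for each) and higher in liver (0.34 and 0.38). Among the atypical receptors, which bind chemokines without classical signalling, Ackr1 was higher in both tissues (0.19 in brain, 0.45 in liver). Ackr2 was higher in brain (0.32), Ackr3 lower in brain (-0.30) and Ackr4 lower in liver (-0.56).

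Among the 28 other chemokine ligands listed, 18 were tested in liver, of which 14 were called higher and Ccl25, which attracts cells to gut and thymus, lower (-0.68 ± 0.09). For the counts of ligands and receptors here, the shares over all genes were 31.9% higher and 30.0% lower in liver and 16.3% and 12.0% in brain. The median log2 fold change of these 18 was 1.22, against 0.011 for all genes tested. The largest rises were those of Cxcl5 (3.42 ± 0.53) and Cxcl1 (2.29 ± 0.52), both neutrophil attractants, and of Ccl5 (3.00 ± 0.47), Ccl6 (2.39 ± 0.26), Ccl7 (2.37 ± 0.46) and the platelet chemokine Pf4 (2.33 ± 0.37). In brain 14 of the 28 were tested and 6 were called higher, namely Ccl17 (1.76 ± 0.24), Ccl12 (1.22 ± 0.21), Ccl22 (0.92 ± 0.15), Ccl6 (0.84 ± 0.12), Ccl28 (0.72 ± 0.17) and Cxcl14 (0.28 ± 0.08), and none lower; the median of the 14 was 0.45 against 0.0083 for all genes. Of 9 other chemokine receptors, 5 were tested in liver and 3 called higher, among them Cxcr2 (2.64 ± 0.36) and Cxcr4 (2.56 ± 0.36), and of 2 tested in brain Cxcr4 was called lower (-0.39 ± 0.10).

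Of 12 genes of the interferon-gamma response, 11 were tested in each tissue; for the counts that follow, the share of all genes called higher was 31.9% in liver and 16.3% in brain. In liver 8 were called higher, among them Cd274 (1.72 ± 0.33) and Gbp2 (1.64 ± 0.32). In brain 5 were called higher, led by Psmb9 and Tap1 (0.76 for each), and Ifng itself was too low to test in either tissue. Of 9 lymphoid follicle genes, 4 of 5 tested in liver were called higher, among them Ltb (2.38 ± 0.38), Il7 (2.12 ± 0.24) and the B cell survival factor Tnfsf13b (1.47 ± 0.21), and 3 of 6 tested in brain, among them Lta (1.37 ± 0.23) and Tnfsf13b (0.96 ± 0.09). The median log2 fold change was 0.71 in liver and 0.32 in brain for the interferon list, and 1.47 and 0.36 for the follicle list. Cr2, a marker of follicular dendritic cells and B cells, was not called in either tissue.

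Markers of leukocytes moved with these genes in liver, where 31.9% of all genes were called higher, and so did some markers of stromal cells. All 7 B cell markers were called higher at 28 months, and their summed level went from 3.58 to 17.2 CPM (median 7.17) at 3 months to 5.11 to 422 CPM (median 17.9). T cell markers were called higher in 7 of 8 (median sum 6.82 to 18.5 CPM, highest 68.6), Kupffer cell markers in 6 of 6 (334 to 845 CPM, highest 4020), monocyte markers in 4 of 4 (10.3 to 33.0 CPM, highest 157) and neutrophil markers in 5 of 5 tested of 6 (2.60 to 29.5 CPM, highest 551). Dendritic cell markers were called higher in 4 of 5 and lower in 1, NK cell markers higher in 3 of 4 and plasma cell markers in 2 of 4 tested of 5. Stromal fibroblast markers were called higher in 5 of 6 (246 to 398 CPM, highest 636) and hepatic stellate markers in 4 of 5 (134 to 162 CPM, highest 197), while 3 of 5 hepatocyte markers were called lower, where 30.0% of all genes were. None of the markers of these 10 leukocyte, Kupffer cell and stromal lists was at 0 in every liver of 3 or 28 months, and their part in the chemokine values was not tested. In brain, where 16.3% of all genes were called higher, 5 of 6 microglia markers were (median sum 303 to 352 CPM), as were 3 of 3 tested neutrophil markers of 6 (0.837 to 5.93 CPM) and 2 of 3 tested monocyte markers of 4 (0.784 to 1.75 CPM). Of 6 border macrophage markers in brain, 1 was called, Cd163 at 0.50 ± 0.15, and their median sum was 10.8 CPM at both ages; of 6 meningeal fibroblast markers in brain 4 were called lower (154 to 127 CPM), where 12.0% of all genes were, and of 5 red blood cell markers 3 were called higher (75.3 to 129 CPM). The part of these cells in the brain values was not tested either.

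Within an age and prep, 3 pairs of neighbouring chemokine genes varied together from liver to liver. The other members were not set against each other. In all, 14 relations were computed on residual log2 CPM after age and prep, with two-sided permutation tests of 100000 permutations and Benjamini-Hochberg adjustment over the 14. Across 83 livers Cxcl9 and Cxcl10 had a Pearson r of 0.876 and a Spearman rho of 0.717 (permutation p = 1e-05 for each, the smallest these permutations can give; adjusted 2.3e-05 and 2.8e-05), and r was 0.828 without the 2 livers farthest from the median. Ccl3 and Ccl4 had an r of 0.826 and a rho of 0.700 (the same p), and 0.769 without 2 livers. Ccl2 and Ccl8, also neighbours, were looser, at an r of 0.525 (adjusted permutation p = 2.3e-05) and a rho of 0.443 (adjusted permutation p = 0.00030). Within the 3 preps r was 0.816 to 0.917 for Cxcl9 with Cxcl10, 0.822 to 0.846 for Ccl3 with Ccl4 and 0.356 to 0.638 for Ccl2 with Ccl8.

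**Figure D4:**
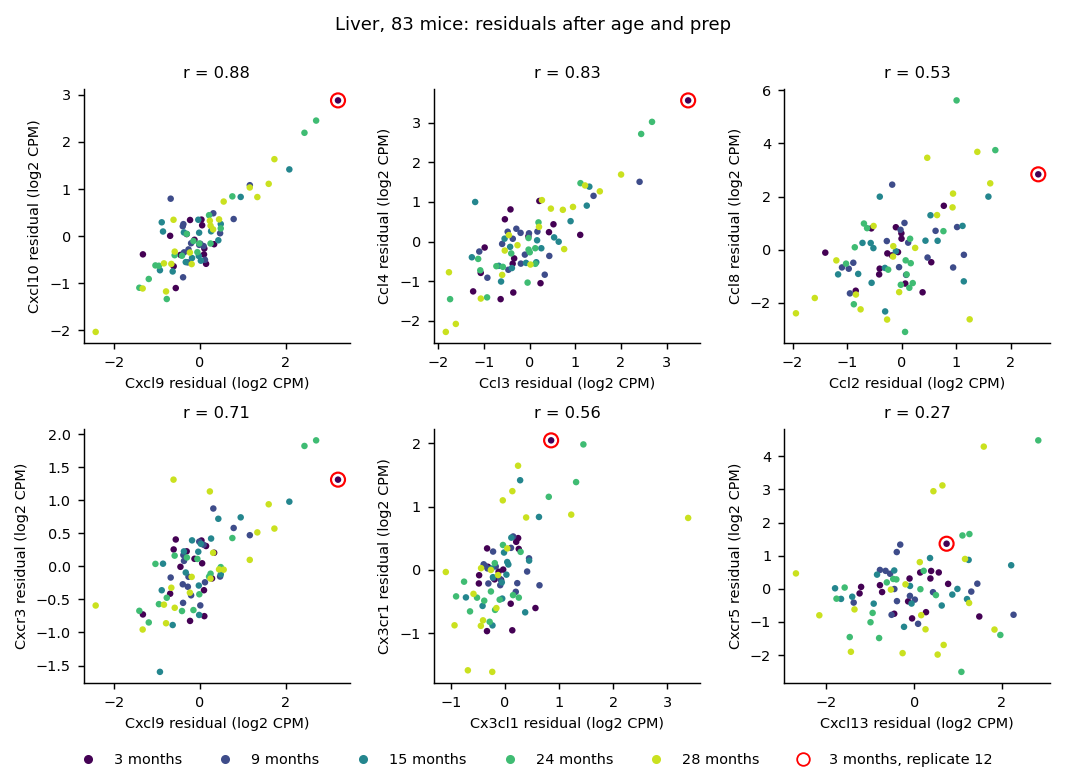
Residual log2 CPM after age and prep of 6 gene pairs across 83 livers, with 1 point per mouse coloured by age in months and a red ring around replicate 12 of 3 months. The pair Cxcl9 and Cxcl10 has an r of 0.876 and lies along a line, while Cxcl13 with its receptor Cxcr5 has an r of 0.267 and does not.

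Of 5 ligands set against a receptor in liver, 4 varied with it by this test and Cxcl13 did not pass; the values of r were not tested against each other. The r was 0.709 for Cxcl9 with Cxcr3 and 0.705 for Ccl2 with Ccr2, 0.556 for Cx3cl1 with Cx3cr1 (adjusted permutation p = 2.3e-05 for each of the 3) and 0.525 for Cxcl16 with Cxcr6 (adjusted permutation p = 0.00030). Their rho was 0.615, 0.579, 0.538 and 0.449 in that order, and r without the 2 farthest livers was 0.643, 0.643, 0.565 and 0.422. Within preps r was 0.697 to 0.734, 0.691 to 0.730, 0.473 to 0.631 and 0.384 to 0.704. Cxcl13 with Cxcr5 had an r of 0.267 (adjusted permutation p = 0.073), a rho of 0.169 (adjusted permutation p = 0.21) and 0.142 to 0.361 within preps. In brain, Cx3cl1 with Cx3cr1 had an r of 0.047 across 82 brains (adjusted permutation p = 0.80; rho 0.112) and -0.047 to 0.134 within preps.

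A mouse with a high chemokine level in liver was not found to have a high one in brain. For the 5 chemokines tested in both tissues, r across 82 mice was 0.215 for Ccl8 (adjusted permutation p = 0.14), 0.186 for Cx3cl1, 0.132 for Ccl3, 0.122 for Cxcl10 and -0.021 for Cxcl16, and none passed. The rho of Ccl8 was 0.210 (adjusted permutation p = 0.12) and the other rho values were -0.006 to 0.140. Within preps the r of Ccl8 was 0.125 to 0.342. Without the 2 mice farthest from the median in brain it was 0.275, and the other r values were -0.005 to 0.121. Ccl8 and Ccl3 had medians of 1 and 6 counts in brains of 3 months, and so few counts limit what a correlation can show.

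The genes most like Cxcl13 across the 83 livers, by Spearman rho of the same residuals among 15578 other genes, were Spic (0.756), a transcription factor of red pulp macrophages, Aoah (0.742), Cfp (0.735), Marco (0.730), a macrophage scavenger receptor, and Adgre1 (0.722), which encodes F4/80. Those most like Ccl8 in liver were Cpxm1 (0.738), Sema7a (0.726), Ltbp2 (0.719), Htra1 (0.710) and BC147527 (0.703). The lists share no gene, and 2 of the 5 genes nearest to Cxcl13, Marco and Adgre1, are among the Kupffer cell markers used above. In brain the genes nearest to Ccl8 across 82 libraries had lower values, from Napsa (0.558) through Cnn2 (0.454), H2-Eb1 (0.442), an MHC class II gene, and Ppic (0.439) to Gsdmd (0.437). These are descriptions across libraries that share their tissue and preps.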

How the data were processed

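PolyA-selected RNA of brain and liver was sequenced as 100-base read pairs from stranded libraries, per the labels' protocols. The deposited values are raw counts per Ensembl gene, 1 column per library, and all columns were used. Per the submitters' processing notes the authors used cutadapt 2.8, HISAT2 2.1.0, SAMtools 1.9 and featureCounts of Subread 2.0.1 with GRCm38.p6 (mm10); the annotation release, strand setting and treatment of multi-mapping reads are not given in the sources used here. Of 55471 identifiers, 55144 had a symbol, and positions and exon lengths were taken from GENCODE M21 on GRCm38, which shares 55230 of them. The brain of 3 months replicate 6 was not analysed here.

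Each tissue was fitted with edgeR 4.0.16 (R 4.3.3) as age plus prep over all 5 ages, after filterByExpr by age and TMM scaling, with quasi-likelihood F tests and Benjamini-Hochberg adjustment over all genes tested. SEs of log2 fold changes were taken from the F statistic. Replicates are separate mice. The difference between tissues was tested in 1 edgeR fit of both, without the mouse as a block; the library names pair the tissues of a mouse, and 23.2% of the 82 pairs had residuals correlated above 0.1. Correlations used residuals of log2 CPM (prior count 2). The scripts were tested on simulated counts with known changes. Alternatives were RLE scaling, DESeq2 1.42.0, no filter, no prep term, each prep alone, a block by replicate number or mouse, the compared ages alone, and left-out libraries, some chosen after seeing the data.

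The 10 members, the gene lists and the markers were chosen with earlier results of these data known. Named genes were all members, the called genes of each list with the largest changes (at most 6 per list and tissue) and the 5 nearest genes of Cxcl13 and Ccl8; Ccr8, Ifng, Cr2 and Cd163 are named outside that rule, after their values were seen.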

Additional observations from a re-analysis of the deposited data

Results flagged for a closer look

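One value is listed because 2 tissues differed under the same contrast by a test of the difference itself. The change of Cx3cl1 from 3 to 28 months was larger in liver than in brain by 2.00 on the log2 scale (edgeR interaction test, adjusted p = 8.4e-11), with all 18 old livers above the young liver median and all 18 old brains below the young brain median. With the mouse as a block the difference was 1.46 (edgeR, adjusted p = 2.4e-07).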

How the results depend on the processing

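In 1040 comparisons of a chemokine's value with an alternative, 880 kept direction and side of the threshold, 68 fell short of it, 19 passed it and 73 turned. Of the 73, 67 were called neither before nor after, 5 were called before and 1 after; a prep holds 4 to 7 libraries per tissue and age. The 5 were Cxcl9 at -0.19, Cxcl10 at -0.65, Cxcl16 at -0.011, Ccl3 at -0.26 and Ccl4 at -0.019 in liver at 24 against 15 months in prep 1 alone, and the 1 was Ccl8 at 3.13 in liver at 28 against 24 months in prep 1 alone. The other turned values follow. Prep 1 alone gave Cxcl10 at 0.12, Cx3cl1 at 0.0073 and Ccl3 at 0.56 in brain at 9 months and Cxcl10 at 0.59 at 15 months, each against 3 months. It gave Cxcl9 at 0.12, Ccl2 at 0.092, Ccl3 at 0.94, Ccl4 at 0.39 and Ccl8 at -0.0022 in liver at 9 months, Cxcl9 at 0.94 and Cxcl10 at 0.35 at 15 months and Cxcl10 at -0.30 at 24 months against 3 months, with Ccl2 at -0.50 at 24 against 15 months and Cxcl9 at 0.70 at 28 against 24 months. Prep 2 alone gave Ccl8 at -1.07 in brain at 28 against 24 months. In liver it gave Cxcl13 at -0.39, Cxcl16 at -0.14 and Ccl8 at -1.84 at 9 months, Ccl3 at -0.34, Ccl4 at -1.11 and Ccl8 at -0.23 at 15 months and Cxcl9 at -0.47 and Cxcl10 at -0.44 at 28 months against 3 months. At 28 against 24 months it gave Cxcl10 at -0.60, Cxcl16 at -0.38, Ccl2 at -0.086, Ccl3 at -0.43 and Ccl4 at -0.67. Prep 3 alone gave in brain Ccl8 at 0.35 at 9 months, Cxcl16 at -0.29, Cx3cl1 at 0.028 and Ccl3 at -0.21 at 15 months, and Cxcl10 at -0.079 at 24 and -0.21 at 28 months against 3 months and at -0.13 at 28 against 24 months. In liver it gave Cxcl9 at 0.039, Ccl2 at 0.29, Ccl3 at 0.30 and Ccl4 at 0.050 at 9 months and Cxcl9 at 0.34 at 15 months against 3 months, and Cxcl10 at -0.12, Cx3cl1 at -0.31, Ccl3 at -0.29, Ccl4 at -0.25 and Ccl8 at 0.16 at 28 against 24 months. With only the compared ages in the fit, Cxcl16 was at -0.0015 in brain at 15 against 3 months, and Ccl2 was at 0.0049 in liver at 9 against 3 months and Ccl8 at 0.15 at 28 against 24 months. Ccl8 was at -0.080 in liver at 9 against 3 months with no prep term. Without the 2 least typical livers, Cxcl10 was at -0.019 at 24 against 3 months and Cxcl9 at 0.016 and Ccl8 at 1.08 at 28 against 24 months. Without liver 3 months replicate 12, Cxcl9 was at 0.049, Ccl2 at 0.38, Ccl3 at 0.74 and Ccl4 at 0.32 at 9 months and Cxcl9 at 0.39 and Cxcl10 at 0.060 at 15 months against 3 months, and Cxcl10 was at 0.20 for the difference between tissues, where it was at -0.23 without liver 28 months replicate 14. Over the libraries left out one at a time (7 brains of 28 months, and for liver 2 at 24 against 3 months and 6 at 28 against 24 months), Ccl8 was at -0.032 to 0.34 in brain at 28 against 24 months, and in liver Cxcl10 was at -0.019 to 0.87 at 24 against 3 months. In liver at 28 against 24 months Cxcl10 was then at -0.036 to 0.36, Cx3cl1 at -0.20 to 0.55, Ccl3 at -0.030 to 0.40 and Ccl8 at -0.58 to 1.03.

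Counts of calls are over the 5 chemokines tested in brain and the 9 in liver with all libraries; Ccl2 in brain, not among the 5, was called in prep 3 alone at 28 against 3 months (1.55, edgeR, adjusted p = 0.018). In preps 1, 2 and 3 alone the chemokines called in brain were 0, 0 and 1 at 24 against 3 months and 0 in each at 24 against 15 months, and 0 and 2 in preps 2 and 3 at 28 against 3 months. In liver they were 0 in each at 15 against 3 months, 0, 3 and 8 in preps 1, 2 and 3 at 24 against 3 months, 2 in prep 2 at 28 against 3 months, 0, 6 and 0 in preps 1, 2 and 3 at 24 against 15 months, and 4, 0 and 0 at 28 against 24 months. With only the compared ages in the fit, Ccl8 in brain was too low for the filter and not tested at 28 or 24 against 3 months or at 24 against 15 months (0 called there), and Cxcl13 in liver at 28 against 24 months was lost (adjusted p = 0.084, 0 called); DESeq2 called 5 in brain at 28 against 3 months and 2 at 24 against 15 months. With libraries left out, the number called was 4 to 5 in brain and 7 to 9 in liver at 28 against 3 months, 3 to 4 and 7 to 9 at 24 against 3 months, 4 in liver at 15 against 3 months, 0 to 1 in liver at 28 against 24 months and 1 to 3 for the difference between tissues. The cause was not tested.

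Replicate numbers within a tissue name different mice at different ages; residuals of libraries that share a number had a median r of 0.010 in brain and 0.009 in liver. As a replicate block the number gave 2 in place of 1 calls in brain at 24 against 15 months and 7 in place of 8 in liver at 24 against 15 months, as did RLE scaling, no filter and the compared ages alone, and 8 in place of 7 in liver at 28 against 3 months, with Cxcl9 at 1.01 (edgeR, adjusted p = 0.012); turned values under the block were Ccl2 at 0.0084 and Ccl8 at -0.015 in liver at 9 against 3 months and Ccl8 at 0.68 at 28 against 24 months. Brain and liver of 1 mouse had a median r of 0.050; with the mouse as a block 1 chemokine was called for the difference between tissues, as without it. Levels under about 0.1 CPM rest on a few counts per library.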
